A study of Homo sapiens with 6 samples.

Results

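Aminoacyl tRNA synthetases, the enzymes that load each amino acid onto its tRNA, were followed in human fibroblasts at an earlier and a later time after the start of an oncogenic RAS signal. The members were all genes whose symbol is the 1-letter code of an amino acid followed by ARS, with or without a closing 2, together with EPRS and the phenylalanine genes FARSA, FARSB and FARS2. This rule uses names only and found 36 of the 58219 genes in the table, 20 of them for enzymes of the cytosol and 16 for enzymes of the mitochondrion (symbols ending in 2). All 36 reached 10 normalised counts in 3 or more of the libraries and so entered the test. MARS2 was not matched and is not analysed here.

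Polyadenylated RNA came from IMR90, human lung fibroblasts grown as a normal diploid line, which in all 6 libraries carried ER-RAS, a RAS oncoprotein fused to a hormone-binding part of the oestrogen receptor. All cells received 4-hydroxytamoxifen (4OHT), the ligand that switches the fusion protein on, at 100 nM, for 30 h (3 libraries, labelled uncommitted control) or for 72 h (3 libraries, labelled committed), in replicates A, B and C. The titles give the shorter time as 1.5 days, and the hours are used here. Both groups received 4OHT and both express ER-RAS, and they differ in time and in the commitment named in the labels at once, so these 2 cannot be told apart. The promoter that drives ER-RAS, and whether the replicates were separate cultures, are not given by the labels, and a p-value here reflects only how much these libraries scatter, which may be technical.

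A synthetase first joins its amino acid to AMP and then passes it to the end of the matching tRNA, and the charged tRNA goes to the ribosome. Cytosolic and mitochondrial enzymes are made from separate nuclear genes for most amino acids, while GARS and KARS each supply both compartments from a single gene and EPRS carries the glutamate and the proline enzyme in a single chain. Several cytosolic synthetases form a large complex on the scaffold proteins AIMP1, AIMP2 and EEF1E1. Uncharged tRNA activates the kinase GCN2 (gene EIF2AK4), which starts the integrated stress response, and its transcription factor ATF4 is known to raise the genes of many cytosolic synthetases.

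Each library held 13221152 to 15703544 reads assigned to genes. Fibroblast identity was checked on 8 markers, all of which were expressed, but 7 of the 8 fell from 30 h to 72 h (COL1A1, COL1A2, COL3A1, VIM, THY1, PDGFRB and LOX) and FAP rose. Summed over the 8 genes, normalised counts ranged from 173100 to 178800 in the libraries of 30 h but from 56290 to 66740 in those of 72 h. Most markers of other cell types were at or near 0, with KRT5, KRT14, CDH5 and CD3E listed at 0 in all libraries. Epithelial markers summed to 8.77 to 53.8 (30 h) and 5.25 to 41.9 (72 h), and leukocyte markers to 5.08 to 13.7 (30 h) and 5.11 to 12.6 (72 h). KRT19, an epithelial keratin, stood apart in replicate B at both times, with 43.69 normalised counts at 30 h and 34.88 at 72 h against 1.02 to 4.87 in the other 4 libraries, and its part in the results was not tested. TEK, listed among the endothelial markers, was higher at 766.9 ± 132 (SD, n = 3) and 419.7 ± 42.4 normalised counts. In bulk RNA, fewer cells of a type and less RNA per cell cannot be told apart.

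The synthetases did not move as a block. Relative to 30 h, 6 of the 36 transcripts rose and 9 fell at 72 h (limma on log2(normalised count + 1), Benjamini-Hochberg adjusted p under 0.05 over 13315 genes), and 21 did not pass. Among all genes tested, 23.6% rose and 25.0% fell, so the members were not called more often than the background. Their changes were small. The median size of the log2 fold change was 0.18 over the 36 members and 0.28 over all genes tested, and none of the 20 cytosolic members combined a call with a change of at least 1.5-fold, which 23.2% of all genes tested did. The summed transcripts of the 36 genes took 0.386% to 0.438% of the reads in a library, and the ranges of the 2 times overlapped, with 0.403% to 0.438% at 30 h and 0.386% to 0.417% at 72 h.

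**Figure D1:**
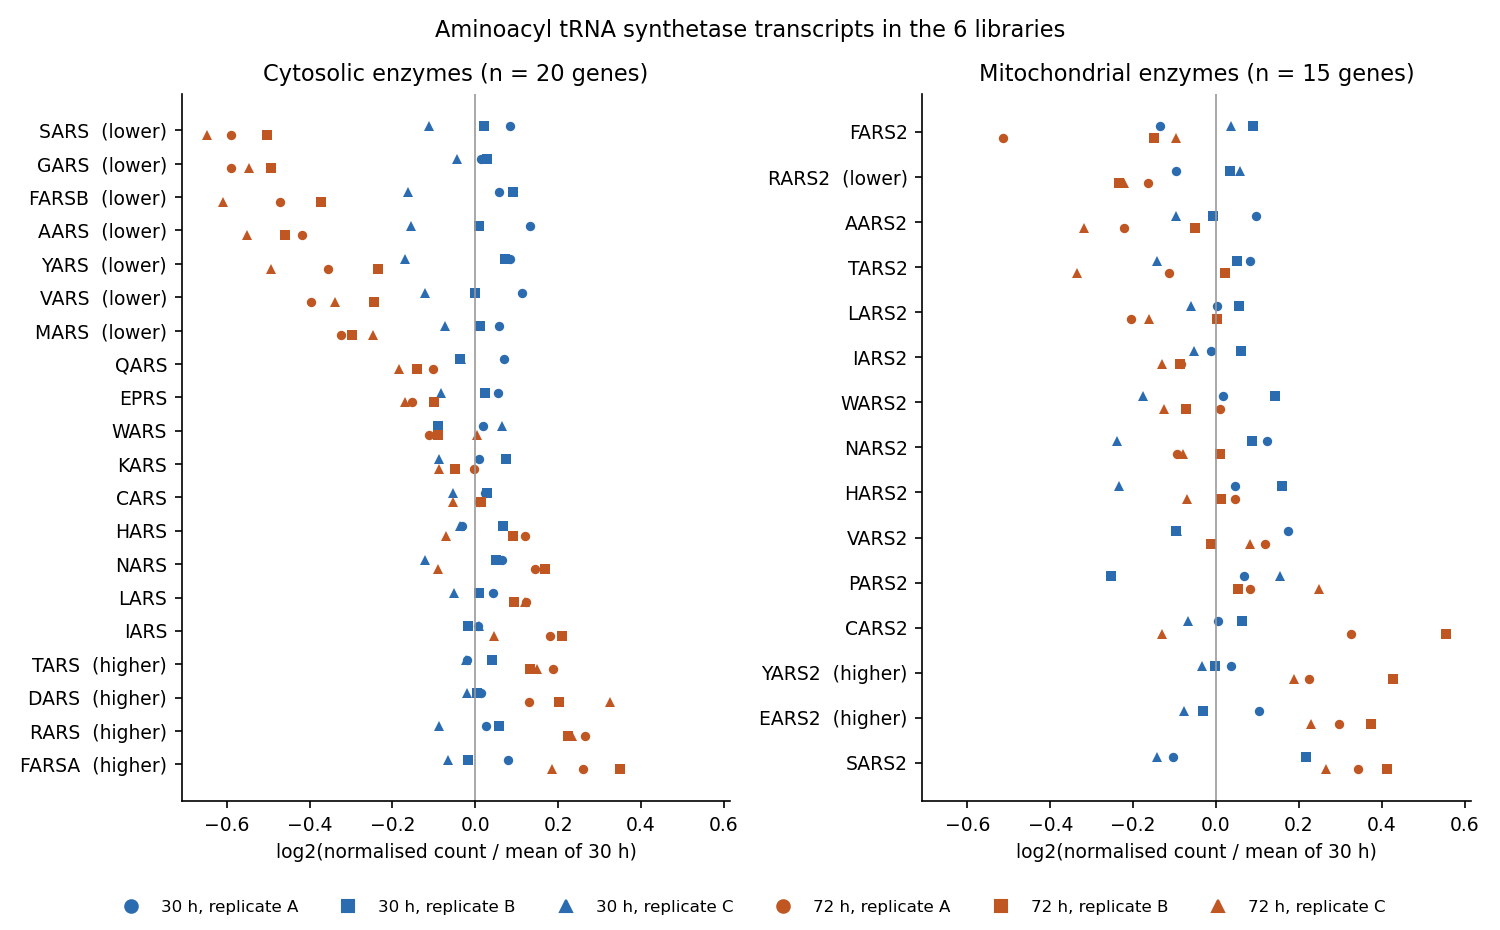
Each row is 1 synthetase gene, and the horizontal axis gives log2 of its normalised count in each library over the mean of the 3 libraries of 30 h, with blue symbols for 30 h, orange for 72 h and a shape for each replicate letter. The words lower and higher mark members past the threshold. All 3 libraries of 72 h lie left of all 3 of 30 h in the top rows of the cytosolic panel, and the lowest rows lie to the right.

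The cytosolic enzymes changed in both directions, over a range of values that the threshold divides. Of the 20, 7 fell (SARS, GARS, FARSB, AARS, YARS, VARS and MARS), 4 rose (FARSA, RARS, DARS and TARS) and 9 did not pass. The shares over all genes tested were 25.0% that fell and 23.6% that rose. No gap in the log2 fold changes sets the called genes apart, since TARS passed at 0.16 and IARS did not at 0.15. The median log2 fold change of the 20 was -0.05, against 0.01 over all genes tested. All 3 libraries of 72 h lay below all 3 of 30 h for 9 of the 20 cytosolic and 3 of the 16 mitochondrial genes, and above them for 6 and 3. Such separation was met downward by 29.9% and upward by 29.3% of all genes tested.

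Among the enzymes that fell, SARS, which charges serine tRNA and also the selenocysteine tRNA, gave 2802, 2682 and 2445 normalised counts in replicates A, B and C of 30 h and 1755, 1865 and 1686 at 72 h. The lowest library of 30 h stood well above the highest of 72 h. Its log2 fold change was -0.58 ± 0.07 (SE, adjusted p = 8.73e-05), which took its mean from 2643 ± 182 (SD, n = 3) to 1768 ± 90.5. GARS, the glycine enzyme of both compartments, gave 4734, 4779 and 4548 at 30 h and 3114, 3331 and 3211 at 72 h. Its groups were as clearly apart, with a log2 fold change of -0.54 ± 0.05 (adjusted p = 2.84e-05). KARS, the lysine enzyme that also serves both compartments, did not pass, at -0.04 ± 0.06 (adjusted p = 0.555), with 2316 ± 131 and 2243 ± 66.5 normalised counts.

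AARS, the alanine enzyme, gave 1707, 1568 and 1400 normalised counts at 30 h and 1166, 1134 and 1064 at 72 h, with a log2 fold change of -0.47 ± 0.08 (adjusted p = 0.000748). YARS, the tyrosine enzyme, gave 2384, 2365 and 1999 at 30 h and 1759, 1910 and 1597 at 72 h, a log2 fold change of -0.36 ± 0.09 (adjusted p = 0.0075). In both genes replicate C was the lowest library at each time, and for YARS the lowest library of 30 h was close to the highest of 72 h. VARS, the valine enzyme, fell by 0.32 ± 0.07 on the log2 scale (adjusted p = 0.00397), from 1923 ± 157 to 1535 ± 82 normalised counts. MARS, the methionine enzyme that also charges the initiator tRNA, fell by 0.29 ± 0.05 (adjusted p = 0.00186), from 2253 ± 102 to 1844 ± 51. The exons of MARS overlap those of DDIT3 on the opposite strand over 355 bases, 5.05% of its exon length, and DDIT3 rose, so with the strand setting of the counting not given part of the MARS reads is uncertain.

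The enzymes that rose did so by less. RARS, the arginine enzyme, gave 2090, 2134 and 1930 normalised counts at 30 h and 2463, 2396 and 2410 at 72 h. All 3 later libraries were higher, with a log2 fold change of 0.24 ± 0.06 (adjusted p = 0.00517). DARS, the aspartate enzyme, gave 1135, 1127 and 1108 at 30 h and 1230, 1292 and 1407 at 72 h, a log2 fold change of 0.22 ± 0.06 (adjusted p = 0.0147), again without overlap. TARS, the threonine enzyme, rose by 0.16 ± 0.05 (adjusted p = 0.0238), from 4488 ± 110 to 5003 ± 100 normalised counts. The call for TARS was lost without replicate A of 30 h or without replicate A of 72 h, with log2 fold changes of 0.15 and 0.14.

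The phenylalanine enzyme of the cytosol showed both directions within 1 protein, since FARSA (chr19:12922479-12934037, - strand, GRCh38) and FARSB (chr2:222570536-222656337, - strand) encode its α and β subunits. FARSA gave 1162, 1086 and 1051 normalised counts at 30 h and 1316, 1402 and 1251 at 72 h, and rose by 0.27 ± 0.06 (adjusted p = 0.00687). FARSB gave 1498, 1535 and 1287 at 30 h and 1038, 1113 and 944 at 72 h, and its log2 fold change was -0.48 ± 0.08 (adjusted p = 0.00114). In every library of 30 h FARSB had more normalised counts than FARSA, and in every library of 72 h fewer. The log2 ratio of FARSA to FARSB counts was -0.37, -0.50 and -0.29 at 30 h and 0.34, 0.33 and 0.41 at 72 h, a difference of 0.75. The exact two-sided permutation test over the 6 libraries gave p = 0.10, the smallest that 3 against 3 libraries allow. Per length of exon the levels of 30 h lay within their spread of each other and those of 72 h did not, with 32.6 ± 1.93 for FARSA and 30.9 ± 3.03 for FARSB RPKM (reads per kilobase of exon, scaled to library size) at 30 h, and 39.4 ± 2.55 and 22.2 ± 1.98 at 72 h.

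The other 9 cytosolic enzymes did not pass, with log2 fold changes from -0.14 to 0.15. QARS and EPRS, the glutamine enzyme and the glutamate and proline enzyme, had -0.14 (adjusted p = 0.0601 and 0.0596), and all their libraries of 72 h lay below those of 30 h. IARS and LARS, the isoleucine and leucine enzymes, had 0.15 and 0.11 (adjusted p = 0.058 and 0.0896), with all libraries of 72 h above. These 4 stood just outside the threshold. Of the 17 alternative settings, EPRS and IARS each passed in 4, and QARS and LARS each in 1. With quantile normalisation the log2 fold change of EPRS shrank to -0.02. WARS, KARS, CARS, HARS and NARS, which charge tryptophan, lysine, cysteine, histidine and asparagine tRNA, overlapped between the times, with log2 fold changes from -0.06 to 0.08.

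Members of the multi-synthetase complex could be set beside the free enzymes. The 8 catalytic members of the complex (EPRS, IARS, LARS, MARS, QARS, RARS, KARS and DARS) included 2 that rose, 1 that fell and 5 that did not pass, with a median log2 fold change of 0.03. Of the 12 cytosolic genes outside the complex, 2 rose, 6 fell and 4 did not pass, with a median of -0.19. Of all genes tested, 23.6% rose and 25.0% fell. The difference between the 2 classes was not tested. The scaffold genes themselves were lower. AIMP1 gave 826.6, 820.9 and 767.7 normalised counts at 30 h and 671.4, 715 and 676.5 at 72 h, a log2 fold change of -0.23 ± 0.06 (adjusted p = 0.0129), and EEF1E1 had -0.29 ± 0.09 (adjusted p = 0.0215). AIMP2 had -0.11 ± 0.07 and did not pass (adjusted p = 0.203), although its 3 libraries of 72 h also lay below those of 30 h.

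Synthetases fall into classes I and II by the fold of their catalytic domain, and both directions were met in both cytosolic classes. Among 9 cytosolic genes of class I, 1 rose and 3 fell, and among 10 of class II, 3 rose and 4 fell (EPRS joins an enzyme of each class and was left out). Of the 8 mitochondrial genes of class I, 2 rose and 1 fell, and of the 8 of class II, none rose and 1 fell. With 23.6% of all genes tested rising and 25.0% falling, calls in both directions are common. Differences between the classes were not tested.

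Mitochondrial enzymes mostly did not pass. Of the 16 genes, 2 fell (RARS2 among them), 2 rose (EARS2 and YARS2) and 12 did not pass, with a median log2 fold change of -0.05. For comparison, 23.6% of all genes tested rose, 25.0% fell and 6843 of the 13315 did not pass. Whether the share called differs between the 2 compartments, or from that of all genes, was not tested.

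EARS2, the mitochondrial glutamate enzyme, gave 485.5, 441.9 and 428.2 normalised counts at 30 h and 554.9, 585.9 and 529.7 at 72 h. All later libraries were higher, with a log2 fold change of 0.30 ± 0.08 (adjusted p = 0.00856). The exons of EARS2 overlap those of UBFD1 on the opposite strand over 370 bases, 6.46% of its exon length. UBFD1 had a mean of 1477 normalised counts, so with the strand setting not given part of the EARS2 reads is uncertain. YARS2, the mitochondrial tyrosine enzyme, gave 387, 376.9 and 369.1 at 30 h and 441.4, 508.3 and 430.1 at 72 h, a log2 fold change of 0.28 ± 0.08 (adjusted p = 0.0181). Replicate B of 72 h held the highest count. The call was lost without replicate B of 30 h or without replicate B of 72 h, when the log2 fold change was 0.28 and 0.21.

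RARS2, the mitochondrial arginine enzyme, had 555.1 ± 31.2 normalised counts at 30 h and 481.2 ± 12.7 at 72 h, a log2 fold change of -0.20 ± 0.07 (adjusted p = 0.0346). This call was the least firm of the 15. It was made in 7 of 17 alternative settings, and it was lost without replicate B or C of 30 h and without replicate A, B or C of 72 h, with log2 fold changes from -0.23 to -0.17.

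CARS2, the mitochondrial cysteine enzyme, varied more among the libraries of 72 h than among those of 30 h. It gave 740.9, 771.1 and 704.5 normalised counts at 30 h and 925.8, 1086 and 675.5 at 72 h, so that replicates A and B of 72 h were above all libraries of 30 h and replicate C was below them all. The log2 fold change was 0.25 ± 0.17 (adjusted p = 0.255), which became 0.44 and passed without replicate C of 72 h but 0.10 and did not pass without replicate B of 72 h. With all 6 libraries and no filter on low values CARS2 also passed. SARS2, the mitochondrial serine enzyme, was the lowest member, with 20.95 ± 2.98 and 26.55 ± 1.36 normalised counts and a log2 fold change of 0.33 ± 0.22 that did not pass (adjusted p = 0.232). Annotated exons of a readthrough gene on the same strand cover 46.2% of its exon length, so its reads are uncertain. The other 10 mitochondrial genes that did not pass (FARS2, AARS2, TARS2, LARS2, IARS2, WARS2, NARS2, HARS2, VARS2 and PARS2) had log2 fold changes from -0.25 to 0.14, with standard errors of 0.05 to 0.17.

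Precision differed between the genes. The standard errors of the cytosolic log2 fold changes were 0.05 to 0.09 and those of the mitochondrial ones 0.05 to 0.22, the widest for SARS2 and PARS2, whose counts were lowest. Counts were not the whole of it, since CARS2 had an error of 0.17 with 738.8 normalised counts at 30 h and WARS2 one of 0.11 with 207.2. Per length of exon, cytosolic transcripts ranged at 30 h from 11.1 RPKM (CARS) to 81.5 RPKM (GARS) with a median of 28.8, and mitochondrial ones from 0.468 (SARS2) to 35.5 RPKM (IARS2) with a median of 4.78.

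**Figure D2:**
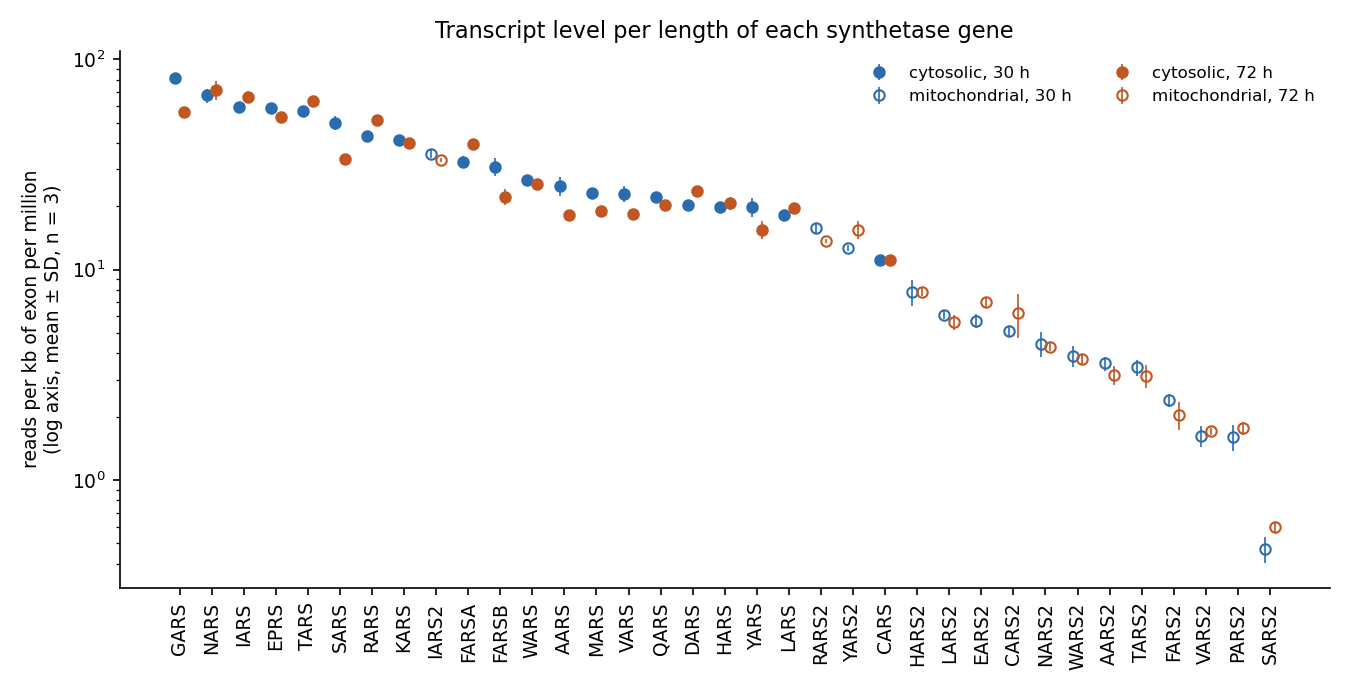
The vertical axis gives RPKM on a log axis (mean ± SD, n = 3) for the synthetase genes shown, ordered by level at 30 h. Symbols are filled for cytosolic and open for mitochondrial enzymes, blue for 30 h and orange for 72 h. Cytosolic genes fill the left of the plot and IARS2, RARS2 and YARS2 are the mitochondrial genes among them, GARS leads at 30 h with 81.5 and NARS at 72 h with 71.4, and SARS2 is lowest.

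The order of the levels changed at its top. At 30 h GARS (81.5 ± 2.57 RPKM) was above NARS (67.4 ± 5.15), IARS (59.5 ± 0.807), EPRS (58.5 ± 3.29) and TARS (56.7 ± 1.41), and neighbours among the last 3 did not differ beyond their spread. At 72 h NARS (71.4 ± 7.32), IARS (66.1 ± 4.39) and TARS (63.4 ± 1.18) came first and overlapped within their spread, followed by GARS (56.2 ± 2.19) and EPRS (53.3 ± 1.77).

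For 17 pairs of a cytosolic and a mitochondrial gene of 1 amino acid, the log2 ratio of their counts was compared within each library. Counts are not corrected for length here, so only the change of the ratio is read. Further partners share exon bases with other genes, so part of their reads is uncertain. On the same strand GTF2H4 covers 22.0% of the exon length of VARS2. On the opposite strand HARS covers 11.7% of HARS2 and S100PBP 4.82% of YARS. In 5 pairs (FARSA/FARS2, RARS/RARS2, IARS/IARS2 and LARS/LARS2 among them) all 3 ratios of 72 h were above those of 30 h, so that the cytosolic gene gained on its partner. The other direction was met in 5 pairs (SARS/SARS2, YARS/YARS2, EPRS/EARS2, VARS/VARS2 and AARS/AARS2), and the remaining 7 pairs overlapped. For these 10 pairs the exact two-sided permutation p was 0.10, the smallest 3 against 3 libraries can give (0.170 after adjustment over the 17 pairs), so no pair could pass 0.05.

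Partners that both passed the test across genes went in opposite directions. RARS rose while RARS2 fell, and YARS fell while YARS2 rose. The mitochondrial calls were the less firm ones, since RARS2 passed in 7 of 17 alternative settings and YARS2 in 15 of 17. RARS and YARS passed in all 17. The YARS/YARS2 log2 ratio was 2.62, 2.65 and 2.43 at 30 h and 1.99, 1.91 and 1.89 at 72 h. The ratio of YARS to YARS2 moved by -0.64 and that of RARS to RARS2 by 0.45. That of SARS to SARS2 moved by -0.91, but SARS2 did not pass, had the lowest counts of the members and has uncertain reads. No pair had both partners past the threshold in the same direction.

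**Figure D3:**
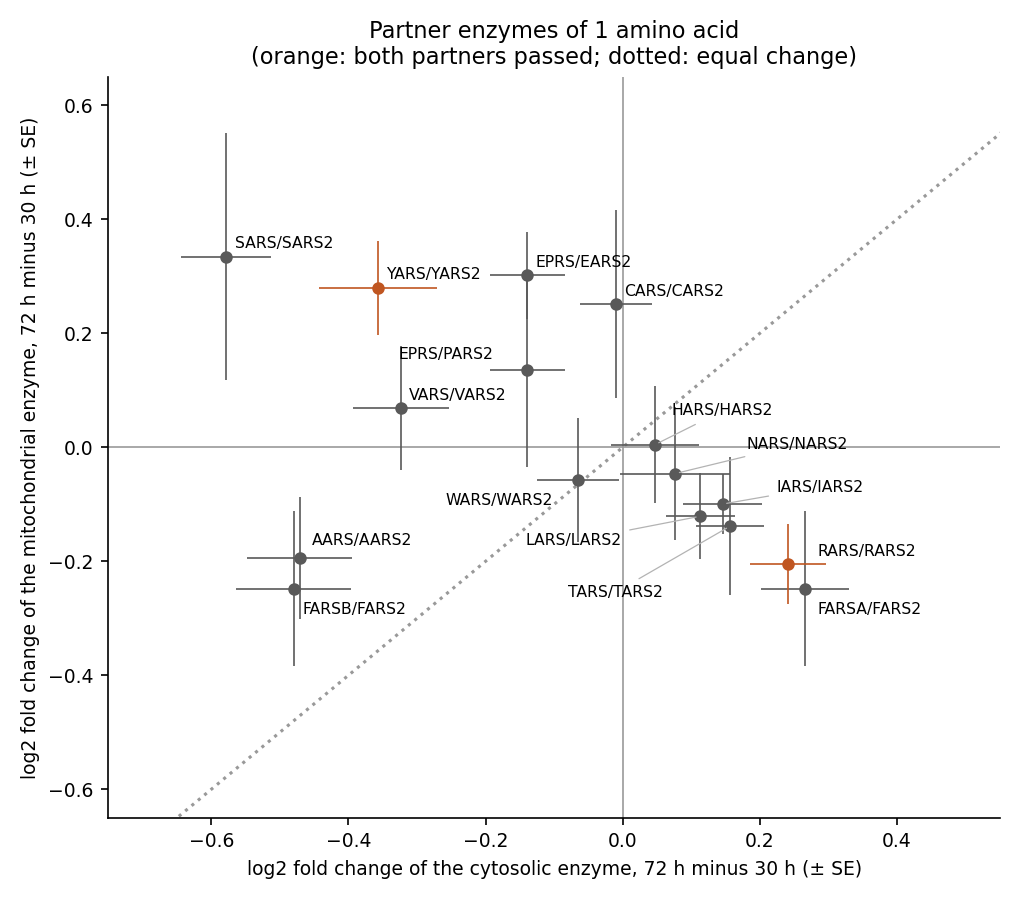
Each point is a pair of partner genes of 1 amino acid, with the log2 fold change (72 h minus 30 h, ± SE) of the cytosolic gene on the horizontal and of the mitochondrial gene on the vertical axis. Orange marks the pairs shown in which both partners passed (RARS/RARS2 and YARS/YARS2), which lie in the quadrants of opposite sign, and the dotted line marks equal change.

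The letters of 8 promoters are shown because they hold a sequence known to be read by ATF4 with C/EBP partners, and most of them belong to cytosolic enzymes. The 8-base core TGATGNAA, in which N is any base, and its reverse complement TTNCATCA were searched on both strands in RefSeq promoters (GRCh38.p14, 250 bases before to 50 after each start site). An entry was found for 29 of the 36 members. The core was present in 7 of 16 cytosolic genes (43.8%) and in 1 of 13 mitochondrial genes (7.69%), against 3.60% of 15843 protein-coding genes. The windows below give the core in capitals with 10 bases on each side, 5′ to 3′ on the strand of the gene.
GARS (chr7:30594835-30594862, + strand): tacgcggcgaTTTCATCAtgctccgagc
AARS (chr16:70289676-70289703, - strand): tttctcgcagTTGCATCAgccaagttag
MARS (chr12:57488054-57488081, + strand): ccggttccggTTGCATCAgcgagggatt
CARS (chr11:3057408-3057435, - strand): ggggcggcggTTGCATCAgattctagga
NARS (chr18:57621805-57621832, - strand): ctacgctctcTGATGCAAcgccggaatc
IARS (chr9:92293693-92293720, - strand): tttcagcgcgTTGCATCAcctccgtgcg
TARS (chr5:33440957-33440984, + strand): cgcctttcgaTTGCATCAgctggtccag
YARS2 (chr12:32756077-32756104, - strand): tccacactgcTGATGGAAaaattaagtt

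Genes with this core did not share a direction. Of the 7 cytosolic genes that hold it, GARS, AARS and MARS fell, TARS rose and CARS, NARS and IARS did not pass, with a median log2 fold change of -0.01. Of the 9 cytosolic genes with a promoter entry and no core in this window, 2 rose, 2 fell and 5 did not pass, with a median of -0.06. Among all genes tested 23.6% rose and 25.0% fell, and the difference between genes with and without the core was not tested. In 6 of the 8 windows the core reads TTGCATCA or its complement TGATGCAA, while GARS has TTTCATCA and YARS2 has TGATGGAA. A match is a run of letters and says nothing of whether a factor binds there.

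Genes of the integrated stress response moved in both directions. Of 34 listed genes, 10 rose, 15 fell and 9 did not pass, with a median log2 fold change of -0.11. Over all genes tested, 23.6% rose and 25.0% fell. The median size of the log2 fold change was 0.52 for the 34 listed genes and 0.28 over all genes tested. Whether the list differs from all genes was not tested. ATF4 itself, the factor at the centre of the response, gave 2827, 2679 and 2969 normalised counts at 30 h and 3010, 2755 and 3066 at 72 h, which overlap (log2 fold change 0.06 ± 0.06, adjusted p = 0.46). ATF4 is known to be controlled largely at translation, which these data do not measure. DDIT3, the stress factor also called CHOP, rose from 284.6 ± 24.8 to 436.1 ± 30 normalised counts (0.61 ± 0.09, adjusted p = 0.000434), and ATF3, a stress-induced factor, rose by 1.33 ± 0.19 from 48.33 ± 12.8.

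Stress response genes with the largest falls included enzymes of serine synthesis. CHAC1, a glutathione-degrading enzyme, gave 691.1, 788.4 and 916.4 normalised counts at 30 h and 115.5, 135.2 and 103.8 at 72 h, a log2 fold change of -2.75 ± 0.13 (adjusted p = 4.13e-07). PHGDH and PSAT1, enzymes of serine synthesis, had -1.63 ± 0.12 and -1.28 ± 0.24, and NUPR1, a stress-induced nuclear protein, had -1.35 ± 0.18. DDIT4, an inhibitor of mTORC1 signalling, went the other way and rose by 1.89 ± 0.23. Named after their values were seen, ASNS, the asparagine synthetase, fell by 1.20 ± 0.29, and XPOT, the exportin that carries tRNA out of the nucleus, rose by 0.52 ± 0.05.

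**Figure D4:**
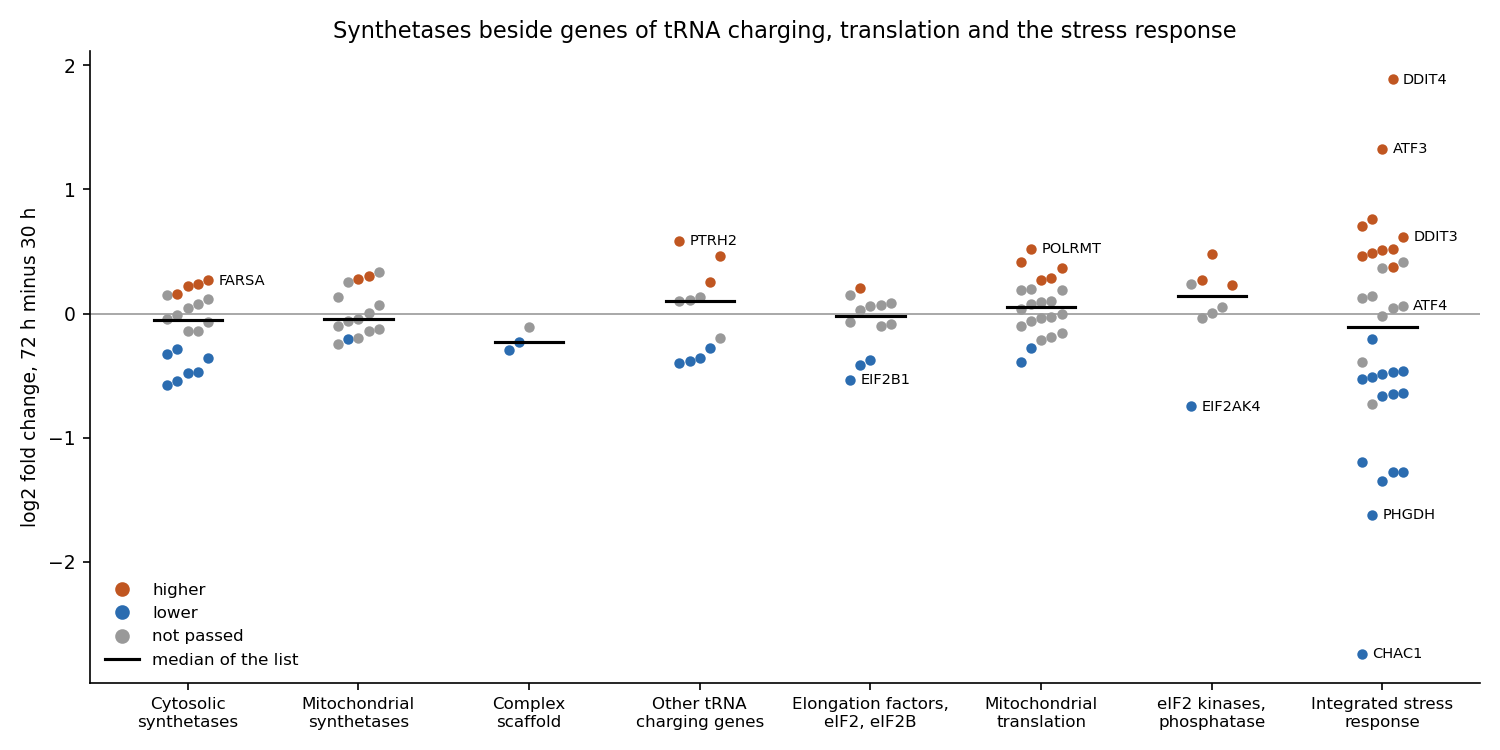
Points give the log2 fold change (72 h minus 30 h) of the synthetases shown and of the tested genes of 6 related gene lists. They are orange where higher, blue where lower and grey where the threshold was not passed. A black bar marks the median of the points shown in each list. The cytosolic synthetases lie between -0.58 (SARS) and 0.27 (FARSA), and the integrated stress response genes between -2.75 (CHAC1) and 1.89 (DDIT4).

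The kinase that senses uncharged tRNA was lower at 72 h. EIF2AK4 gave 2833, 2800 and 2650 normalised counts at 30 h and 1621, 1753 and 1558 at 72 h, without overlap (log2 fold change -0.75 ± 0.06, adjusted p = 1.05e-05). Of the 8 listed eIF2 kinases, their helpers and the phosphatase subunits, this was the 1 that fell, while 3 rose and 4 did not pass. The shares over all genes tested were 25.0% that fell and 23.6% that rose. EIF2AK1, the haem-regulated kinase, rose by 0.48 ± 0.06, and PPP1R15B and PPP1R15A, which direct the phosphatase to eIF2, rose by 0.27 ± 0.06 and 0.23 ± 0.05. EIF2AK3, EIF2AK2, GCN1 and IMPACT did not pass.

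Other steps of charging and of elongation were followed in the same fit. Among 11 tested genes of tRNA charging outside the family, 3 rose and 4 fell, with a median log2 fold change of 0.10. Over all genes tested, 23.6% rose and 25.0% fell. PTRH2, a peptidyl-tRNA hydrolase, rose by 0.58 ± 0.08, PSTK, the kinase of the selenocysteine pathway, by 0.47 ± 0.17 from 37.9 ± 2.77 normalised counts, and MTFMT, which formylates the mitochondrial initiator tRNA and was named after its value was seen, by 0.25 ± 0.08. TARSL2, a further threonine enzyme of the cytosol, fell by 0.40 ± 0.13 while TARS rose. DTD2 and DTD1, which remove wrongly charged amino acids from tRNA, fell by 0.39 ± 0.10 and 0.28 ± 0.09. QRSL1, a subunit of the amidotransferase that makes mitochondrial glutamine tRNA from the glutamate tRNA charged by EARS2, fell by 0.36 ± 0.08.

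Of 12 tested elongation factors and subunits of eIF2 and eIF2B, 1 rose and 3 fell, with a median log2 fold change of -0.02. The shares over all genes tested were 23.6% that rose and 25.0% that fell. EEF1A1, which delivers charged tRNA to the ribosome, rose by 0.20 ± 0.06. The 3 that fell were subunits of eIF2B, the exchange factor of eIF2, namely EIF2B1 (-0.54 ± 0.06), EIF2B2 (-0.42 ± 0.07) and EIF2B3 (-0.37 ± 0.08). EIF2B4 and EIF2B5, the other subunits of that complex, did not pass, with 0.06 and 0.08.

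Factors of mitochondrial translation and tRNA maturation moved in both directions. Of 22, 5 rose, 2 fell and 15 did not pass, with a median log2 fold change of 0.06. Over all genes tested, 23.6% rose and 25.0% fell, so this list was not called more often in either direction. POLRMT, the mitochondrial RNA polymerase, rose by 0.52 ± 0.10, TRMT10C, part of the nuclease that trims the 5′ end of mitochondrial tRNA, by 0.41 ± 0.09 and LRPPRC, which stabilises mitochondrial mRNA, by 0.37 ± 0.06. TFB2M and TFAM, transcription factors of the mitochondrial genome, rose by 0.29 ± 0.09 and 0.27 ± 0.08, the second named after its value was seen. ELAC2, which trims the 3′ end of tRNA, fell by 0.39 ± 0.07, and MTRF1L, a release factor, by 0.28 ± 0.09.

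WARS is known to be induced by interferon gamma, so genes of that response were set beside it. Of 9 tested, 3 rose and 1 fell, with a median log2 fold change of 0.32. The shares over all genes tested were 23.6% that rose and 25.0% that fell. CXCL10, a chemokine, rose by 2.73 ± 0.18 and GBP2, named after its value was seen, by 1.83 ± 0.24 from 11.79 ± 2.74 normalised counts, while GBP1 fell by 0.60 ± 0.13. WARS gave 2384, 2211 and 2462 normalised counts at 30 h and 2177, 2210 and 2359 at 72 h and did not pass (log2 fold change -0.06 ± 0.06, adjusted p = 0.403).

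Replicate C stood low for the synthetases at both times. It was the lowest library of 30 h for 29 of the 36 genes, where it was the lowest for 39.6% of all genes tested, and the lowest of 72 h for 21 of the 36, against 39.1%. At 30 h this held for 17 of 20 cytosolic and 12 of 16 mitochondrial genes. Without replicate C in both groups, 8 members rose and 9 fell, in place of 6 and 9, with IARS and CARS2 added to those that rose, EPRS to those that fell, and RARS2 lost. The part of replicate C in the other results was not tested beyond leaving it out.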

How the data were processed

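Reads from 6 libraries were, per the submitters' processing notes, trimmed with Trimmomatic 0.35, aligned to GRCh38 by STAR 2.5.1b and tested by DESeq2 1.18.1. The sources used here do not state the read counter or the strand setting. As deposited, the signal values are read counts scaled by the authors with 1 size factor per library. In each library 100% of them were whole multiples, within 0.01, of the value of 1 read, which gave back whole reads. The authors also deposited a log2 fold change with its error, a score (the Wald statistic) and a p-value, which enter as an alternative or where the text names that table.

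The 13315 genes that reached 10 normalised counts in 3 or more libraries were compared on log2(normalised count + 1) with limma 3.58.1 (trend and robust) in R 4.3.3, adjusted by Benjamini-Hochberg over all of them, with a threshold of 0.05. Fold changes are on this scale, errors are limma's standard error, and positive values are higher at 72 h. edgeR 4.0.16 and DESeq2 1.42.0 were run on the recovered reads as alternatives, and edgeR called 6 members higher and 9 lower. The limma and edgeR fits were checked on simulated counts. RPKM used merged exon lengths of GENCODE 29 (32 of the 36 members had the same coordinates there) and reads per library. Promoters came from RefSeq, matched by symbol on the same chromosome.

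The members, gene lists and tests were chosen with earlier results of these data known. All synthetases were named, as were up to 6 called genes per list, by size of change among those averaging 50 or more normalised counts in the higher group, all genes of lists of 3 or fewer, and ATF4 and DDIT3. No pairing by replicate letter was used. PCR duplicates could not be identified in such counts. Columns of per-sample values left unused numbered 0. Some genes that the rule names are left out of the text and the figures.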

Additional observations from a re-analysis of the deposited data

How the results depend on the processing

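None of the 15 members past the threshold changed direction in any of the 17 alternative settings (pseudocounts of 0.5 and 5, filters, quantile and TMM scaling, edgeR, DESeq2, the authors' deposited values, a replicate block, 1 library left out, and letter C left out). The number of mitochondrial enzymes that fell was 1 in place of 2 with no filter on low values, with quantile normalisation, with DESeq2 on recovered reads, in the authors' deposited values and without letter C in both groups, each time because RARS2 did not pass. Leaving out 1 library gave 1 to 2. The number that rose was 1 to 3 with 1 library left out, and it was 1 without replicate B of 30 h or of 72 h and 3 without replicate C of 72 h. The median log2 fold change of the cytosolic genes was -0.0075 with quantile normalisation, which moved the median of all genes tested to 0.03. That of the mitochondrial genes ran from -0.13 (without replicate C of 30 h) to 0.0091 (without replicate B of 30 h) with 1 library left out. With the letter as a replicate block, 9 cytosolic genes fell in place of 7, with QARS and EPRS added, 6 members rose with and without it, and 12 stress response genes fell in place of 15. The letters were not taken as pairs in the main fit, because the labels do not say whether they pair the times. After removal of group means, libraries of 1 letter correlated at 0.00696 (A), 0.172 (B) and 0.185 (C). Replicates B and C of 30 h each correlated best with their own letter at 72 h. Replicate A of 30 h correlated best with replicate B of 72 h (0.0956). These values do not settle whether the letters are pairs. Quantile normalisation called 6 cytosolic genes higher in place of 4, with IARS and LARS added. SARS2 and PARS2 had the fewest counts and the widest standard errors (0.22 and 0.17), and with 3 libraries a group no ratio of partners can pass 0.05 by permutation.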
